A study of Mus musculus with 4 samples.

Results

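The probes of the mouse microRNA subfamilies miR-297, miR-466, miR-467 and miR-669 were followed across 4 one-colour microarrays of tumours formed by 4T1, a mammary carcinoma cell line of the mouse. Members were chosen by probe name alone: a name beginning with 1 of the 4 subfamily numbers and not ending in a star, the older mark of a passenger strand. The rule found 44 of the 700 microRNA probes, with 3 in miR-297, 17 in miR-466, 8 in miR-467 and 16 in miR-669. The 4 star-named probes of the same subfamilies were kept apart.

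Per the labels, 20 female mice, written as strain Balb/s, received 50000 4T1 cells each by orthotopic injection. Once the tumour measured 1 cm3, the primary tumour of 10 mice was given sham radiation and that of the other 10 mice was given 10 Gy. The primary tumour was then taken out by mastectomy, and metastases grew until the end point, so in the group "metastases, 10 Gy" it was the primary tumour, and not the metastases, that received the dose. Each of the 4 groups (primary tumour sham, metastases sham, primary tumour 10 Gy, metastases 10 Gy) had 1 array, hybridised with 2 µg of total RNA. All 4 groups had the same injected line and the same strain label, and the labels name no genetic change. The labels do not give the organ of the metastases or say whether RNA of several mice was pooled. No difference below has a replicate check or a test.

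MicroRNAs are short RNAs that repress messenger RNAs paired with their seed, the stretch near the 5′ end. Many microRNAs of these 4 subfamilies are made from a large tandem cluster in an intron of Sfmbt2, a Polycomb-group gene that is imprinted in the mouse, and the cluster is best known from the placenta. Their sequences derive from simple repeats, so that the mature RNAs are rich in alternating uracil and guanine on one hairpin arm and in alternating cytosine and adenine on the other, and the members resemble one another closely.

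The 44 targets, 20 to 24 bases long, were grouped by the longest alternating run in the sequence deposited for each probe. A run of at least 6 bases of alternating U and G put 22 targets in the uracil-guanine (UG) class, a run of at least 6 bases of alternating C and A put 13 in the cytosine-adenine (CA) class, and 9 held neither. All 3 miR-297 targets, 10 of the miR-466, 1 of the miR-467 and 8 of the miR-669 targets were in the UG class. The CA class held 7 miR-466, 2 miR-467 and 4 miR-669 targets, and the remaining 9 were 5 miR-467 and 4 miR-669 targets. The hairpin arm was known for 18 members. Of these, 10 of the 11 on the 5p arm were UG targets and 6 of the 7 on the 3p arm were CA targets. By gene symbol in a RefSeq table (GRCm38.p6), 31 members matched only genes inside Sfmbt2, 7 matched only genes outside it, 4 matched genes of both kinds and 2 matched none.

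The targets below are printed 5′ to 3′ as deposited for the probes, with the seed, bases 2 to 8, in capitals. The first set is shown because its 5 UG members were among those with the largest differences between the primary tumours. Within the set miR-466h and miR-466j share a seed, and the others differ in theirs.
miR-466h: uGUGUGCAugugcuugugugua
miR-466j: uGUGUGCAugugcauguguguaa
miR-297a: aUGUAUGUgugcaugugcaugu
miR-669e: uGUCUUGUgugugcauguucau
miR-669d: aCUUGUGUgugcauguauaugu

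The second set is shown because its members are near-copies of others that behaved differently on the arrays. miR-297b-5p and miR-297c have the seed of miR-297a, miR-466c-5p and miR-466e-5p share a seed, and so do miR-467h and miR-467e.
miR-297b-5p: aUGUAUGUgugcaugaacaugu
miR-297c: aUGUAUGUgugcauguacaugu
miR-466c-5p: gAUGUGUGugugcauguacaua
miR-466e-5p: gAUGUGUGuguacauguacaua
miR-467h: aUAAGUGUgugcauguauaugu
miR-467e: aUAAGUGUgagcauguauaugu
miR-669l: aGUUGUGUgugcauguauaugu
miR-669b: aGUUUUGUgugcaugugcaugu

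The third set holds the 4 CA members with the highest mean normalized level, each with a seed of its own, since the CA results turn on them.
miR-466f-3p: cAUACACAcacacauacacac
miR-467f: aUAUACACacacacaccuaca
miR-466g: aUACAGACacaugcacacaca
miR-669f: cAUAUACAuacacacacacguau

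Over the 44 members there were 29 different seeds. The most widely shared were AUACAUA in miR-466a-3p, miR-466b-3-3p, miR-466d-3p and miR-467g, and AUGUGUG in miR-466a-5p, miR-466b-5p, miR-466c-5p and miR-466e-5p. Because so many targets differ by 1 or 2 bases, a probe's signal cannot be assigned to a single microRNA of the family with certainty, and probe brightness does not rank the microRNAs by amount.

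Detection asked that 3 or more of a probe's 5 spots lie above the 95th percentile of the array's 180 empty spots. The median empty spot read 171.5 intensity units for the sham primary tumour, 177.2 for sham metastases, 416.9 for the irradiated primary tumour and 252.4 for metastases of irradiated mice. In the same order 48.1%, 65.6%, 26.6% and 48.4% of all probes were detected, so the array with the highest background had the fewest detected probes. Against the tissue label, of 5 epithelial miR-200 family probes fixed as markers 1 was detected on each primary tumour array, with summed signals above the empty spots of 61.1 (sham) and 40.4 (10 Gy), while all 5 were detected on both metastases arrays, at 6961 (sham) and 3659 (10 Gy). Of these, miR-200a, miR-200b and miR-141 lay below the detection limit in both primary tumours.

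The primary sham array stood apart for the family, and also for UG probes outside it. The members detected numbered 20 in the sham primary tumour, 27 in sham metastases, 8 in the irradiated primary tumour and 24 in metastases of irradiated mice, with 35 detected on at least 1 array (70.3% of all probes were), 7 on all 4 (25.7% of all probes were) and 9 on none. Summed over the 44 probes, the signal above the empty spots came to 52703, 3872, 1893 and 5320 in that order of arrays. As a share of the signal of all microRNA probes, this was 4.75%, 0.343%, 0.339% and 0.788% in the same order. UG members made up 50920 of the 52703 units on the primary sham array. The normalized level was highest on that array in 21 of the 35 detected members (60.0%), against 26.4% of all probes detected on at least 1 array. By class these were 13 of 17 detected UG members, 8 of 10 CA members and 0 of 8 members with neither repeat. In 16 of the 35 detected members every spot on the primary sham array lay above every spot of the other 3 arrays (background over all detected probes 16.5%), 11 of them UG members and 5 CA members. The same held for 8 of 9 detected UG probes outside the family and for 0 of 8 detected CA probes outside it. Those outside UG probes made up 13.1% of the signal of all microRNA probes on the primary sham array. In tissue RNA, fewer cells of a type and less microRNA per cell cannot be told apart. Of the 4 comparisons that follow, the first and the third use the primary sham array, and the second and the fourth do not.

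**Figure D1:**
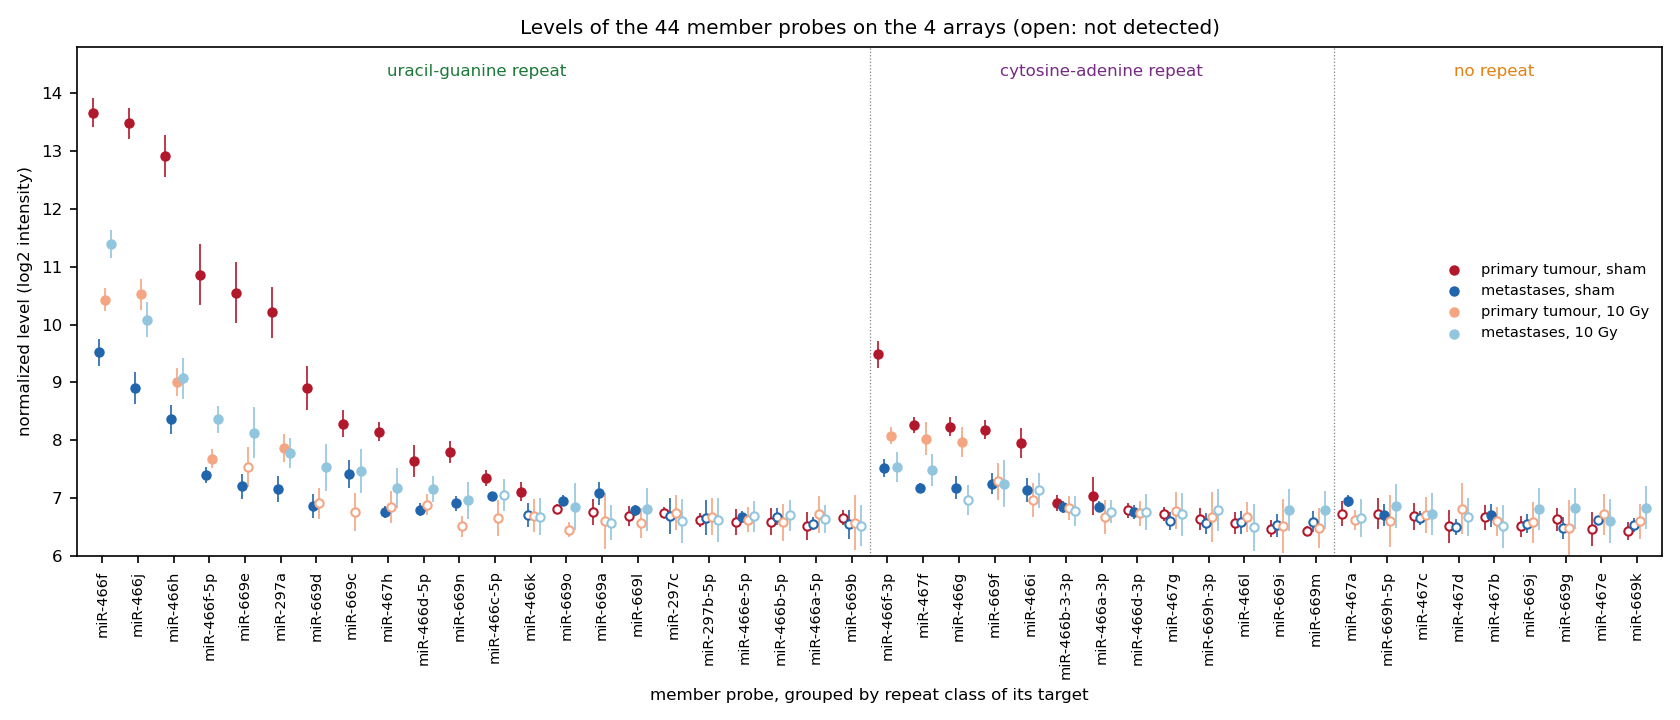
Normalized level (log2 intensity) of each of the 44 member probes on the 4 arrays, with the SD over 5 spots as bars and open points where a probe was not detected. The SD was taken on the log2 scale before normalization. The primary sham array lies above the other 3 arrays for the UG members at the left, with miR-466f at 13.67 there and at 9.52, 10.43 and 11.39 on the others.

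The first comparison was the irradiated against the sham primary tumour. The members were lower on the irradiated array, with the deepest differences in UG targets of miR-466, miR-297 and miR-669. The miR-466h probe had a signal above the empty spots of 10253 ± 2632 (SD over 5 spots) in the sham primary tumour, 362 ± 82.2 in sham metastases, 219.7 ± 59.3 in the irradiated primary tumour and 443 ± 129 in metastases of irradiated mice. The primary sham array alone was high, and its spots did not overlap those of any other array: the lowest read 7665 and the highest spot elsewhere read 613. On the log2 scale after normalization the irradiated primary tumour was lower by a difference of -3.90 ± 0.15 (14.9-fold). The ± on every difference is the SD over 5 spot pairs within the 2 chips. It was taken on the log2 scale after background correction and before the arrays were normalized, so its scale can differ from that of the difference.

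miR-466f followed the same order of arrays with a high value only on the primary sham array, at 18627 ± 3468, against 1283 ± 227 (metastases sham), 571 ± 102 (primary 10 Gy) and 2590 ± 483 (metastases 10 Gy). Its difference was -3.23 ± 0.08, or 9.41-fold lower after 10 Gy. miR-466f-5p read 2250 ± 949, 119 ± 20.2, 57.3 ± 20.0 and 192 ± 46.9 on the 4 arrays in that order, with a difference of -3.18 ± 0.43. Both probes were lower to a similar degree, but their targets are 1 sequence shifted by 1 base, so they are not independent readings. miR-466j, which shares its seed with miR-466h but matched a gene outside Sfmbt2, read 15240 ± 2808, 648 ± 143.6, 626 ± 137 and 1024 ± 243, and its difference was -2.95 ± 0.06. miR-297a read 1287 ± 441, 74.7 ± 25.6, 73.3 ± 31.6 and 101 ± 33.8, and its difference was -2.35 ± 0.35. For each of these 3 probes the other arrays lay far under the primary sham array.

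For members detected on only the sham array, only a bound can be given. With the processing reported here, miR-669e was lower after irradiation of the primary tumour by at least 8.07-fold and miR-669d by at least 2.93-fold. Over the scaling and background alternatives their log2 differences ranged from -3.49 to -2.07 and from -2.46 to -0.67. For miR-669e the probe read 1798 ± 702 above the empty spots in the sham primary tumour and 50.1 ± 43.1, not well above background, in the irradiated one. miR-669d read 467.2 ± 154 and, not well above background, 16.5 ± 24.2 on these arrays. Among CA members the largest difference was that of miR-466f-3p, at -1.41 ± 0.21, with 673 ± 119 on the sham and 88.5 ± 22.7 on the irradiated array. miR-467f (-0.24 ± 0.21) and miR-466g (-0.26 ± 0.16), also detected on both, were under 2-fold, and both changed sign with scaling to the 75th percentile.

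Other UG members showed the primary sham array above the rest at lower signal. miR-467h, which matched a gene outside Sfmbt2, read 242 ± 37.6 in the sham primary tumour, 24.7 ± 7.02 in sham metastases, 12.3 ± 21.4 (not well above background) in the irradiated primary tumour and 39.2 ± 31.8 in metastases of irradiated mice. For miR-669c the same 4 values were 294 ± 63.6, 126.3 ± 34.2, 8.48 ± 29.3 (not well above background) and 62.9 ± 40.2. Between the primary tumours miR-467h was at least 1.73-fold and miR-669c at least 1.91-fold lower after 10 Gy, with the processing reported here. Over the scaling and background alternatives the log2 difference of miR-467h ranged from -1.70 to -0.0085.

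By the same measure, 11 of the 20 members detected on at least 1 of these arrays were at least 2-fold lower (background over all probes detected 15.3%) and 0 were at least 2-fold higher (background 15.0%). All 20 were detected on the sham array and 8 of them also on the irradiated array. The others entered only through the array on which they were higher, so their direction was partly set by the detection rule. The median over the 20 members was -1.29, against -0.06 over all 339 probes detected. By class, 10 of 13 UG members and 1 of 7 CA members were at least 2-fold lower, with medians of -1.996 and -0.36. With members detected on 1 array at their bounds, 8 members were past 2-fold, all lower, with a median of -0.81. The family's median was -0.43 when arrays were centred on non-member probes and turned to 0.047 with scaling to the 75th percentile, a scaling that moved the median of all probes to 1.13, while the UG median stayed below 0 under the scaling and background settings, over members detected on both arrays and with a minimum run of 8 bases, between -3.18 and -0.67. The CA median turned positive with that scaling (0.49) and with the centring (0.012). Over 31 members matched to genes inside Sfmbt2 only, 4 of 9 detected were at least 2-fold lower, and outside it 3 of 6 were. All 4 members matched to genes of both kinds were also at least 2-fold lower.

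**Figure D2:**
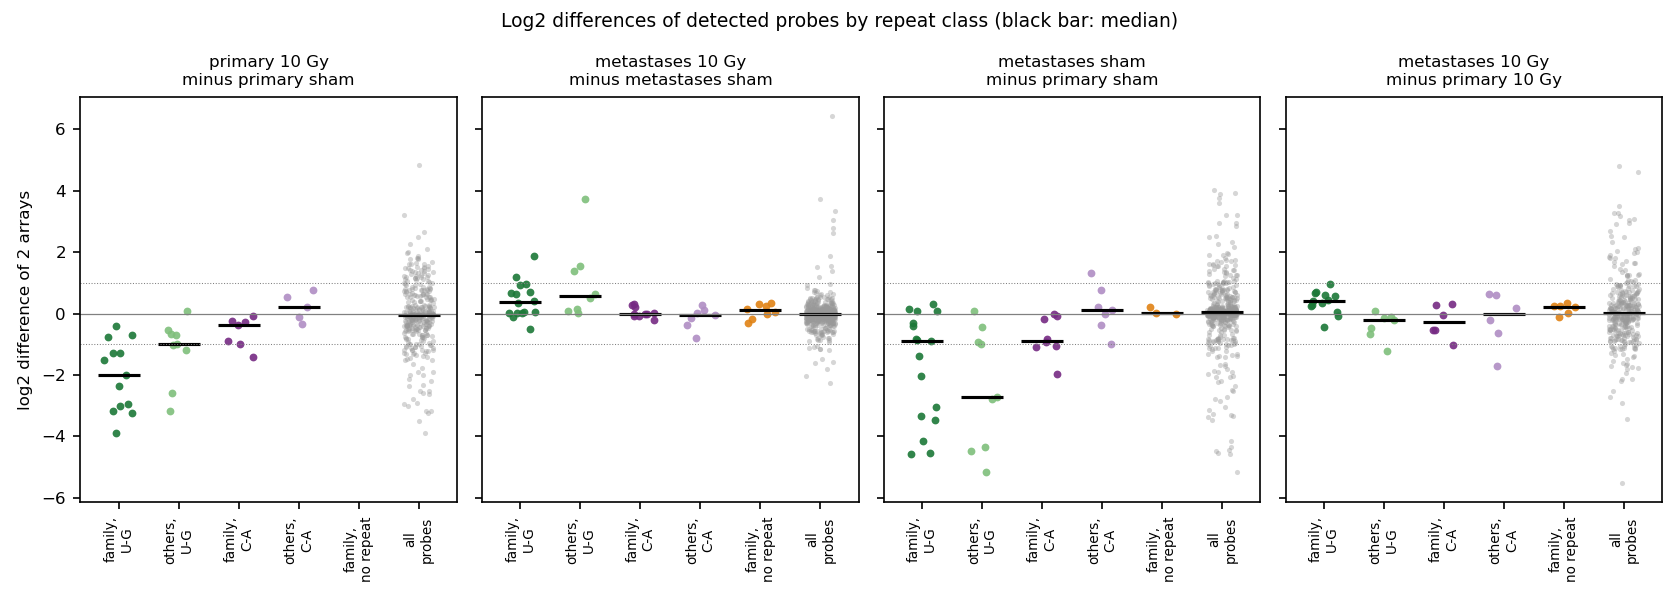
Log2 difference of each detected probe in the 4 comparisons, by repeat class inside and outside the family and over all probes, with a bar at the median and dotted lines at 2-fold. UG members have a median of -1.996 in the comparison of primary tumours and 0.39 in that of metastases.

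The second comparison was metastases of irradiated mice against metastases of sham mice, on arrays that do not include the primary tumour. Here 2 members, miR-466f and miR-466j, were at least 2-fold higher and 0 were at least 2-fold lower, of 34 detected (backgrounds 2.29% and 2.49%). miR-466f differed by 1.88 ± 0.22, or 3.67-fold, and miR-466j by 1.18 ± 0.20. Over the scaling and background alternatives miR-466f ranged from 0.98 to 1.94 and miR-466j from 0.62 to 1.41, so both stayed above 0 and both could lie under 2-fold. The UG members miR-466f-5p (0.96 ± 0.26), miR-669e (0.92 ± 0.31), miR-466h (0.71 ± 0.26) and miR-297a (0.62 ± 0.37) were higher by under 2-fold. The median was 0.06 over the members, 0.39 over 16 UG, 0.00 over 10 CA and 0.11 over 8 others, against -0.02 over all 481 probes detected. miR-669a (-0.51 ± 0.30) and miR-467a (-0.30 ± 0.31), both detected only in sham metastases, had the lowest differences, the second of them within its spot scatter. The count of 2 higher members became 14 with scaling to the 75th percentile, 11 with centring on non-member probes, 4 with cyclic loess or an offset of 10, 1 without background correction and 0 without normalization. The median was 0.92 and 0.82 in the first 2 of these settings and 0.36 over members detected on both arrays. With these 2 metastases arrays and the primary 10 Gy array normalized without the primary sham array, an alternative chosen after seeing the data, the median was 0.057 and 2 members were at least 2-fold higher.

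The third comparison was sham metastases against sham primary tumour, the question of site. It shares the primary sham array with the first, so both lean on the same high values. miR-466j was lower in metastases by a difference of -4.57 ± 0.11 (23.8-fold), miR-466h by -4.55 ± 0.24 and miR-466f by -4.15 ± 0.19. Lower values were also found for miR-466f-5p (-3.47 ± 0.53), miR-669e (-3.35 ± 0.45), miR-297a (-3.06 ± 0.47) and miR-669d (-2.04 ± 0.40). Among CA members miR-466f-3p (-1.97 ± 0.16), miR-467f (-1.09 ± 0.14) and miR-466g (-1.05 ± 0.10) were at least 2-fold lower, and miR-669f (-0.93 ± 0.18) was not. In all, 11 of 28 detected members were at least 2-fold lower (background 10.6%) and 0 were higher (background 12.1%). The median was -0.85 over the members, -0.89 over UG and -0.88 over CA members, against 0.06 over all 473 probes. Centring on non-member probes gave 19 lower members and a median of -1.80. The median was -0.51 without background correction and -2.03 in the authors' deposited table.

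The highest difference in this comparison was that of miR-669a, at 0.32 ± 0.27, a probe detected in sham metastases only. Its signal above the empty spots was 63.3 ± 19.6 there and 13.6 ± 16.2, not well above background, in the sham primary tumour. miR-467a (0.23 ± 0.24) and miR-669o (0.14 ± 0.10) were also detected in sham metastases and not in the sham primary tumour. No member was at least 2-fold higher in metastases.

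The fourth comparison, metastases against primary tumour in irradiated mice, was made without the primary sham array. Of 25 detected members 1, miR-466g, was at least 2-fold lower (background 11.0%) and 0 were higher (background 12.8%). miR-466g was at least 2.01-fold lower in metastases, at 85.5 ± 36.1 in the primary tumour and 23.4 ± 21.4, not well above background, in metastases. miR-466f was higher in metastases by 0.96 ± 0.06, miR-466f-5p by 0.68 ± 0.21, and miR-466j lower at -0.44 ± 0.15, while miR-466h differed by 0.06 ± 0.21. Of these, miR-466f kept its sign in each scaling and background alternative (0.87 to 1.97), and the other 3 did not. Of the 25 members, 24 were detected in metastases and 8 in the primary tumour, 7 of them in both, so most entered through the metastases array. Over the 25 the median was 0.26 (UG 0.40, CA -0.29), against 0.00 over all 344 probes, but it was -0.085 over the 7 and 0.0 with members at their bounds. The median also turned to -0.85 with scaling to the 75th percentile and -0.99 with centring on non-member probes, settings under which the UG median was -0.61 and -0.75. The count of 1 lower member became 6 and 12 under those 2 settings and 0 under cyclic loess, without normalization, without background correction and with stricter detection. Scaling to the percentile, loess and no normalization each put 1 member at least 2-fold higher, and the authors' deposited table put 2. Without the primary sham array in the normalization, the count of members lower by 2-fold was 0 and the median stood at 0.25.

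**Figure D3:**
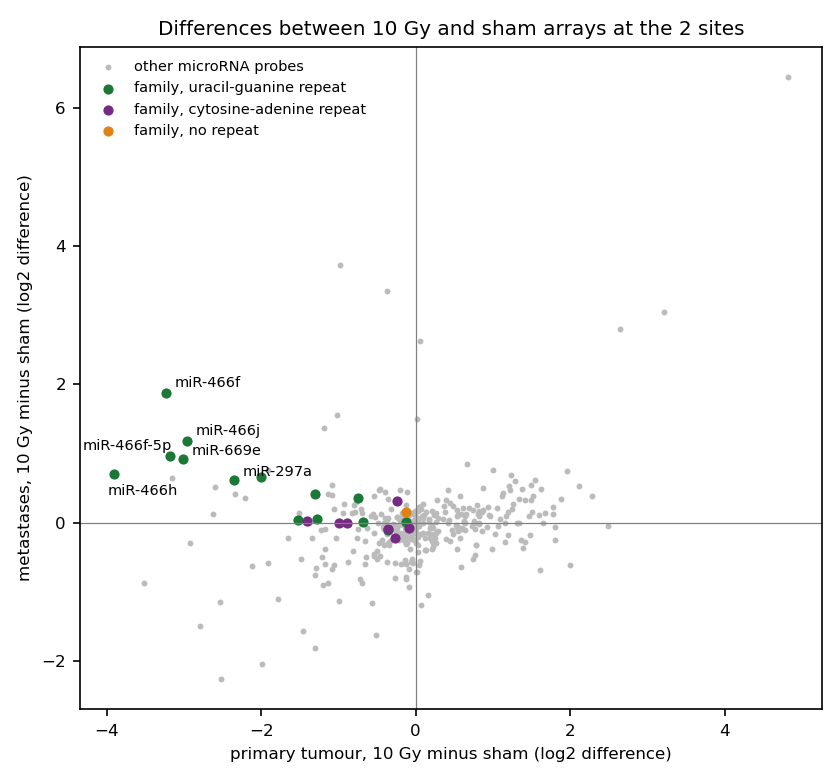
Log2 difference between 10 Gy and sham arrays in metastases (vertical) against that in the primary tumour (horizontal), for 374 probes detected on at least 2 arrays. miR-466f sits at -3.23 and 1.88, and the UG members with the largest differences lie at the upper left, away from most other probes. Other UG members lie near 0, such as miR-669l (-0.125 and 0.016) and miR-669o (-0.36 and -0.10). UG probes outside the family, such as miR-574-5p (-1.19 and 1.37), also lie at the upper left.

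Because the first and second comparisons share no array, their difference can be set beside each other per probe. Over the 22 members detected on at least 2 arrays, the signed radiation difference in metastases minus that in the primary tumour had a median of 1.22. A positive value does not mean a larger change in metastases, since miR-466h was at -3.90 in the primary tumour and 0.71 in metastases. For 12 members the value was at least 1 (background over 374 probes 12.0%, and 11.8% for the opposite direction). UG members had a median of 2.19, with 11 of 14 at least 1, and CA members a median of 0.55, against -0.04 over all 374 probes. UG probes outside the family had a median of 2.57, with 5 of 8 at least 1, and CA probes outside it a median of -0.60. The largest were miR-466f (5.11 ± 0.21), miR-466h (4.61 ± 0.31), miR-466f-5p (4.15 ± 0.65) and miR-466j (4.13 ± 0.24). These differences rest on the high primary sham array and were not tested.

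Near-copies did not all follow the members they resemble. Positions are counted from 1 at the 5′ end of the target, and each substitution names the base of the first probe, then that of the second. miR-297a was detected on all 4 arrays, while miR-297c (G17A) and miR-297b-5p (U16A and G17A), which have its seed, were detected on none, with signals on the primary sham array of 10.96 and 2.19. miR-669a was detected on 1 array, metastases sham, and miR-669b (G5U and U17G) on none. On that array they read 63.3 ± 19.6 and 8.75 ± 15.0. miR-669d was detected on 3 arrays and read 467.2 on the primary sham array, and miR-669l (C2G) read 7.07 there, not well above background. On the metastases arrays, where it was detected, miR-669l read 28.0 ± 7.46 (sham) and 16.2 ± 26.5 (10 Gy), the second within its spot scatter. miR-467e was detected on 1 array, metastases 10 Gy, at 7.05 ± 25.3, a value within its own spot scatter, and miR-467h (A10U) on 3. miR-466c-5p was detected on 2 arrays and miR-466e-5p (G12A) on 1.

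The pattern was not limited to the family name. Of 11 UG targets outside the family, 9 were detected in the comparison of primary tumours, 4 were at least 2-fold lower and 0 higher, with a median of -0.98. In the site comparison without radiation 5 of 9 were past 2-fold, all lower, with a median of -2.71. Between the metastases 3 of 8 were at least 2-fold higher and 0 lower, with a median of 0.58. The muscle microRNA miR-206 differed by -0.98 between the primary tumours, the median there, -5.17 for site without radiation and 3.73 between the metastases. It is counted in each of these sets of UG targets outside the family. The 3 with the highest mean level are shown to set their repeats beside those of the family; the longest UG runs are 13, 11 and 6 bases in this order.
miR-574-5p: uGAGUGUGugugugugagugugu
miR-1187: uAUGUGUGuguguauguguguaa
let-7b: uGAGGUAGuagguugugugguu

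miR-574-5p read 44052 in the sham primary tumour, 8387 in sham metastases, 13394 in the irradiated primary tumour and 11178 in metastases of irradiated mice. Its differences were -1.19 ± 0.07 between the primary tumours, 1.37 ± 0.16 between the metastases, -2.71 ± 0.08 for site without radiation and -0.15 ± 0.12 with it. The differences of miR-1187 were, in that order, -1.01 ± 0.16, 1.56 ± 0.20, -2.77 ± 0.05 and -0.20 ± 0.14. let-7b, a microRNA of many differentiated tissues, differed by 0.08 in all 4 comparisons. Of 9 CA targets outside the family, miR-329, miR-342-3p and miR-34c* had the highest mean levels. miR-329 differed by 0.76 ± 0.13 in the primary tumour and -0.98 ± 0.07 for site without radiation, miR-342-3p by -0.12 ± 0.23 and 1.32 ± 0.13, and miR-34c* by 0.54 ± 0.25 and 0.77 ± 0.26. The median of the CA targets outside the family was 0.22 in the primary tumour and 0.12 for site without radiation. The star-named probes of the family, all CA targets, had 2 of 4 detected in the primary tumour comparison, both on the sham array only. There miR-467b* was at least 1.97-fold lower and miR-467a* at least 1.54-fold lower after 10 Gy.

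Marker lists differed between the same arrays, and their part in the family's differences was not tested. In the order primary sham, metastases sham, primary 10 Gy, metastases 10 Gy, the summed signals of 4 muscle probes, detected on every array, were 9585, 366, 4099 and 12986. Most of the first value came from miR-206, at 9444, a muscle microRNA whose target itself holds a UG run and is counted above. From the sham to the irradiated primary tumour miR-206 fell to 1478, and the rest of the muscle list rose. There miR-1 went from 45.1 to 1794, miR-133a from 51.2 to 510 and miR-133b from 45.2 to 316. For 4 leukocyte probes, of which 2, 4, 1 and 3 were detected, the sums were 6885, 11135, 308 and 4982. For 3 erythroid probes the sums were 2697, 20734, 843 and 11988, with 2, 3, 2 and 2 detected. The endothelial probe miR-126-3p read 6024, 32020, 4273 and 22386. miR-122, the defining microRNA of hepatocytes, was detected on the 2 metastases arrays only, at 53.8 and 716.5.

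The members with neither repeat stayed near background throughout. None of the 9 was detected on a primary tumour array, 3 were detected on the metastases sham array and 6 on the metastases 10 Gy array. miR-467a read 46.5 ± 9.09 on the metastases sham array, its only array. miR-467c read 12.4 ± 25.7 on the metastases 10 Gy array, its only array, a value within its own spot scatter, and miR-467d was detected on none. The other repeat-free members detected on the metastases 10 Gy array were miR-467e, miR-669g, miR-669h-5p, miR-669j and miR-669k. They read between 7.05 and 19.1 there, each within its own spot scatter. The 9 members below detection on every array were miR-297b-5p, miR-297c, miR-466a-5p, miR-466b-5p, miR-466l, miR-467d, miR-467g, miR-669b and miR-669h-3p, which include 5 UG and 3 CA targets. With the processing reported here no repeat-free member was past 2-fold in any comparison, but in the fourth comparison miR-467c reached -1.23 and miR-467e -1.31 under an alternative scaling.

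**Figure D4:**
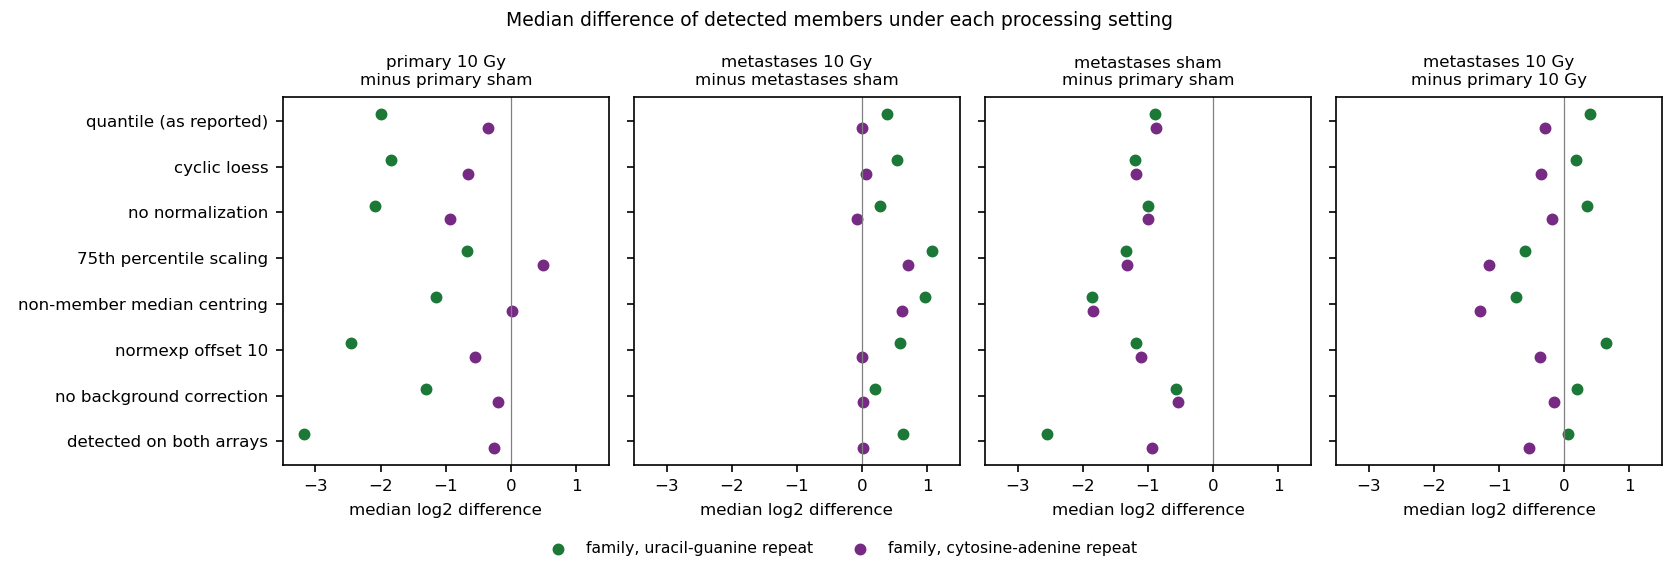
Median log2 difference of detected UG and CA members in the 4 comparisons under each processing setting. UG members stay below 0 in the 2 comparisons with the primary sham array, from -3.18 to -0.67 for the primary tumours, and cross 0 in the comparison of irradiated arrays.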

How the data were processed

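MicroRNA levels were measured on 4 arrays of 3968 spots, 1 per group, with 5 spots for each of 700 probes. Per the file headers, the deposited scanner tables hold linear mean intensities, 1 per spot, with no background taken off. Commas inside large values were removed. The authors' deposited value table gives a background-subtracted intensity per probe and was used only as an alternative. The scanner software is not given in the sources used here.

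Background was corrected with normexp at an offset of 50 (limma 3.58.1, R 4.3.3), the 5 spots of a probe were averaged on the log2 scale, and the 4 arrays were quantile normalized; these log2 values were computed from the deposited intensities. Signals above the empty spots are raw spot means minus the empty-spot median. A probe detected on 1 of 2 arrays gives a bound against the higher of its own value and the lowest detected level. Such a bound holds for the normalization reported here and not for other scalings. With 1 array per group no test was run, and the number of arrays limits the precision. The method was tested on simulated data. All simulated arrays had the background of the primary sham array, so the unlike backgrounds of the real arrays were not covered.

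Named members were the 3 with the highest mean level per subfamily, the 3 highest and 3 lowest differences per comparison among those detected on both arrays, members 2-fold in opposite directions in the 2 radiation comparisons, and members within 2 bases of these. Other members appear as examples of a count, chosen after their values were seen. The members and lists were chosen with earlier results of these data known. Gene symbols come from RefSeq (GRCm38.p6), which matched 42 members. Alternatives were other background corrections, scalings, detection rules, repeat lengths and the authors' table. Tables were handled with pandas 2.3.3 and numpy 2.4.6, and figures drawn with matplotlib 3.10.9. The target sequences of some members are not reported here.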

Additional observations from a re-analysis of the deposited data

Results flagged for a closer look

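miR-466f and miR-466j moved at least 2-fold in opposite directions between the 10 Gy and sham arrays at the 2 sites. miR-466f was lower in the irradiated primary tumour (-3.23 on the log2 scale) and higher in metastases of irradiated mice (1.88), so the 2 radiation differences lay 5.11 apart. miR-466j was at -2.95 and 1.18, and its differences lay 4.13 apart. Over the scaling and background alternatives the metastases difference ranged from 0.98 to 1.94 for miR-466f and from 0.62 to 1.41 for miR-466j. Both could therefore lie under 2-fold there. The pattern was not particular to these members: outside the family, miR-574-5p was at -1.19 and 1.37 and miR-1187 at -1.01 and 1.56. With 1 array per group, the difference was not tested.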

How the results depend on the processing

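No paired analysis was possible because each group had 1 array and the only shared replicate number was 1. All 23 differences of at least 2-fold among named members, a set picked by size, kept their sign in the 6 scaling and background alternatives run. Their size moved: between the primary tumours miR-467h ranged from -1.70 to -0.0085 and miR-466f from -4.77 to -3.06. Of the other 52 named member differences, 17 did. Family medians and counts moved as follows, and the cause was not tested. For the primary tumours (-1.29), the median was 0.047 with scaling to the 75th percentile, -0.43 with non-member centring, -1.62 with an offset of 10, -0.74 without background correction, -2.65 over members detected on both arrays, -0.81 at bounds and -2.91 in the authors' table. For the metastases (0.06) it was 0.92 with the percentile, 0.82 with centring, 0.36 over both and 0.41 in the authors' table. For site without radiation (-0.85) it was -1.28, -1.03 with cyclic loess, -1.80 with centring, -1.11 with an offset of 10, -0.51 without correction, -1.09 over both and -2.03 in the authors' table. For site with radiation (0.26) it was -0.85, -0.99 with centring, -0.0848 over both, 0.0 at bounds and -0.0815 in the authors' table. Counts of members at least 2-fold lower in the primary tumour (11) were 6 with the percentile, 7 with centring and 6 over both, and 3 were higher with the percentile in place of 0. In metastases, the 2 higher members became 14, 11 with centring, 4 with loess, 4 with an offset of 10, 1 without correction and 0 without normalization, and 1 was lower in the authors' table. For site without radiation, 19 in place of 11 were lower with centring. With radiation, 6 and 12 in place of 1 were lower with the percentile and centring, 0 under loess, no normalization, no correction, both arrays, stricter detection and without the primary sham array, and 1, 1, 1 and 2 were higher with the percentile, loess, no normalization and the authors' table. Stricter detection (4 of 5 spots above the 99th percentile) left 18 members detected in the sham primary tumour, 20 in sham metastases, 4 in the irradiated primary tumour and 10 in metastases of irradiated mice. The share of all probes passing this stricter rule is not given here, so these counts are not a result about the family. The percentile scaling and centring moved the median of all probes to 1.13 and 0.65 for the primary tumours, 0.59 and 0.49 for metastases, -0.24 and -0.76 for site without radiation and -0.88 and -1.02 with it. Low signal over background limits members near the empty spots.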
